A study of Mus musculus with 8 samples.

Results

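Aminoacyl-tRNA synthetases are the enzymes that join each amino acid to its transfer RNA (tRNA). The 38 genes described here are 20 cytosolic synthetases, 16 mitochondrial synthetases and 2 scaffold proteins, Aimp1 and Aimp2, taken by symbol from the 52551 rows of each count file. All 38 were found, and 33 of them had enough counts to be tested: all 20 cytosolic, 11 of the 16 mitochondrial and both scaffold genes. Liver RNA of male C57BL/6 mice aged 6 weeks was sequenced with QuantSeq, which reads each transcript near its 3′ end. All mice were PiZ, that is, transgenic for human alpha-1 antitrypsin with the Z mutation, a secreted protein that aggregates inside the endoplasmic reticulum (ER) of liver cells. There were 4 libraries of PiZ mice with an intact Chop gene (Ddit3) and 4 of PiZ/Chop-/- mice, which lack it. The labels state neither the transgene's promoter nor which part of Ddit3 was removed. They also leave unsaid whether libraries of a group are from separate mice, so p-values reflect library-to-library spread, which may be technical. Wild-type livers were not analysed here.

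The cytosolic synthetases charge tRNA for translation on cytosolic ribosomes. A largely but not fully separate nuclear-encoded set, marked by the 2 at the end of the symbol, does so inside mitochondria. In mammals several cytosolic enzymes are held together in the multisynthetase complex by scaffold proteins, Aimp1 and Aimp2 among them. Many genes of cytosolic synthetases are switched on by ATF4, the transcription factor of the integrated stress response, which binds C/EBP-ATF composite elements. CHOP, the product of Ddit3, is a transcription factor that is itself induced by ATF4 during ER stress and can pair with it. The comparison asks how the synthetase transcripts of PiZ livers differ when CHOP is missing.

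Total counts ran from 1650260 to 3064385 per library, and 8669 genes were tested. Levels are in CPM, read counts scaled to library size, and log2 fold changes (negative where PiZ/Chop-/- was lower) carry an SE and come from edgeR's quasi-likelihood test with Benjamini-Hochberg adjusted p over all tested genes. Ddit3 stood, from library 1 to library 4, at 191, 141, 191 and 85.4 CPM in PiZ and at 3.72, 1.72, 2.48 and 4.19 CPM in PiZ/Chop-/-, so its level followed the labels. Human SERPINA1, the transgene, stood at 1568, 950.2, 1441 and 1845 CPM in PiZ and at 637, 554, 576 and 712 CPM in PiZ/Chop-/-. It was lower in all 4 PiZ/Chop-/- libraries (log2 fold change -1.23, adjusted p = 0.00873, edgeR), and it missed the threshold when library 3 of that group was left out (adjusted p = 0.0575). The part of this in the synthetase values was not tested. Summed hepatocyte markers (10 of 10 detected) ranged from 27482 to 36945 CPM in PiZ and from 26860 to 36525 CPM in PiZ/Chop-/-. PiZ library 4 had the lowest mean correlation with its own group (0.914, against 0.931 to 0.951 for the other 7 libraries). PiZ/Chop-/- library 2 stood apart in the synthetases themselves, so the set medians and some genes are also given without it. In whole liver, fewer cells of a type and less RNA per cell cannot be told apart.

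Mars, the cytosolic synthetase for methionine, was the only member that passed the test, and it was 12.1-fold lower in PiZ/Chop-/- livers. Its raw counts, in the same order here and below, were 80, 112, 176 and 146 for PiZ and 13, 7, 7 and 11 for PiZ/Chop-/-. As levels, Mars stood at 49.2, 54.4, 56.6 and 69.3 CPM in PiZ and at 6.04, 4.02, 3.48 and 5.12 CPM in PiZ/Chop-/-. The lowest PiZ library was thus far above the highest PiZ/Chop-/- library. The mean fell from 57.4 ± 8.53 to 4.67 ± 1.14 CPM (SD, n = 4 each), which on the log2 scale is -3.60 (SE 0.26, adjusted p = 8.07e-07, edgeR). Permuting the group labels in all 70 ways (exact test on log2(CPM + 1), two-sided) gave p = 0.0286, which is the lowest value possible with these group sizes. Of the 33 tested members 1 was called, and over all 8669 tested genes 1.03% were called; those called lower in PiZ/Chop-/- were 0.692% of all tested genes.

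Mars is the direct neighbour of the deleted gene. On mm10 Mars (ENSMUSG00000040354) lies on the minus strand of chromosome 10 at 127296221 to 127311786, and Ddit3 (ENSMUSG00000025408) on the plus strand at 127290774 to 127296288. The 2 genes run towards each other, and their annotated 3′ ends overlap by 68 bases, from 127296221 to 127296288. The kit reads this end of a transcript, and no source used here gives the strand setting of the counting, so reads of the shared segment cannot be assigned with certainty. In 36 tested genes whose lowest annotated coordinate lies within 1000 kb of the start of Ddit3, 2 were called, Ddit3 and Mars. For a gene on the minus strand, such as Mars, that coordinate is its 3′ end. The other 34 had log2 fold changes from -1.01 to 1.12 and adjusted p of 0.0670 or more. Dctn2, a dynactin subunit gene that ends before Ddit3 begins, averaged 145 ± 19.8 CPM with Chop intact and 117 ± 7.77 CPM without it (SD, n = 4 each), without overlap (edgeR log2 fold change -0.31, SE 0.17, adjusted p = 0.459). Neighbours without overlap went in both directions: Atp23 was also lower (edgeR -0.74, adjusted p = 0.434), while Lrp1 was higher (edgeR 0.78, adjusted p = 0.0670). Mbd6, which lies between Dctn2 and Ddit3, had 0.30 with overlap (edgeR, SE 0.38, adjusted p = 0.787). Mars and Ddit3 were low in the same 4 libraries, so loss of the CHOP protein and the altered locus cannot be told apart as sources of the low Mars counts.

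**Figure D1:**
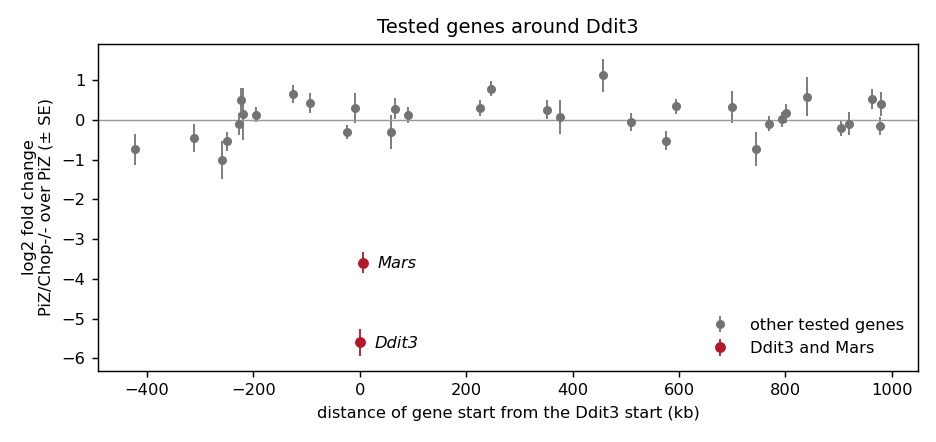
The log2 fold change (PiZ/Chop-/- over PiZ, ± SE, 4 libraries a group) of 36 tested genes is plotted against distance from the start of Ddit3, in kb. The gene start named on the axis is each gene's lowest annotated coordinate, which is the 3′ end for genes on the minus strand. Ddit3 at -5.60 and Mars at -3.60 lie far below the other 34 genes, which span -1.01 to 1.12.

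Among the other 19 cytosolic synthetases, 18 log2 fold changes lay below 0 and none passed the test. Their median was -0.19 and their range -0.86 to 0.18, while over all tested genes the median was -0.0016 and 50.2% lay below 0. With Mars included, 19 of 20 lay below 0 and the median was -0.24; without PiZ/Chop-/- library 1, 15 of 20 lay below 0. At an unadjusted p under 0.05, 6 of the 20 were lower and none higher, Mars among them, while 6.85% of all tested genes were lower and 6.29% higher at that level. Of the 20, the groups did not overlap in 2, Mars and Rars, both lower in PiZ/Chop-/-, and over all tested genes 4.22% were lower and 3.66% higher without overlap. No member other than Mars was called by DESeq2, by limma-voom or in any other of the 20 alternative fits, where the lowest adjusted p of such a member was 0.0618.

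**Figure D2:**
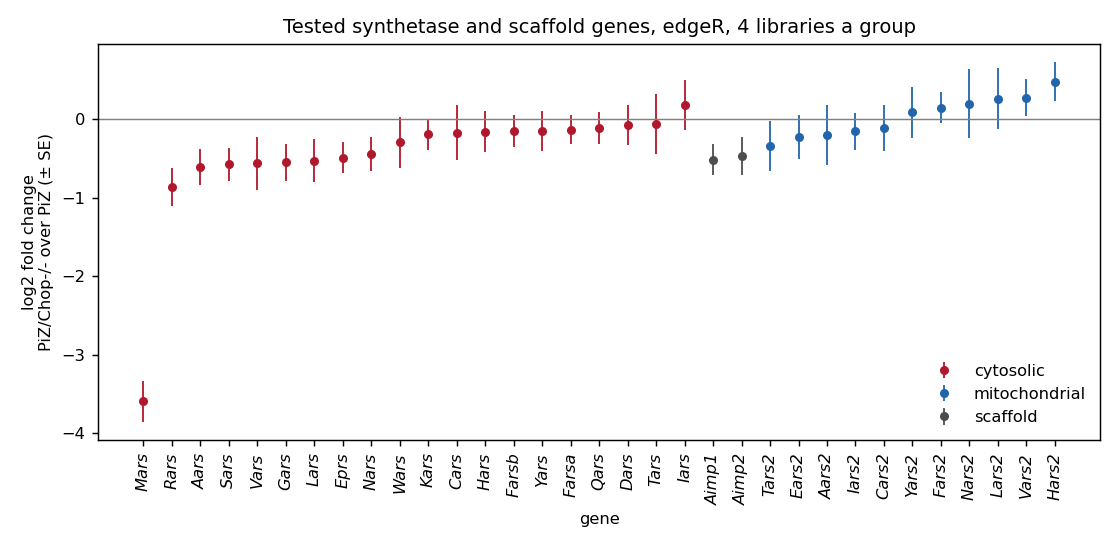
Log2 fold changes (PiZ/Chop-/- over PiZ, ± SE) of the 33 tested members are shown by set, with 4 libraries a group. Of 20 cytosolic genes 19 lie below 0, Mars at -3.60 far from the rest, while the 11 mitochondrial genes fall on both sides of 0, 5 below and 6 above.

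Rars, the synthetase for arginine and an enzyme of the multisynthetase complex, came closest to the threshold after Mars. It stood at 38.7, 28.7, 36.3 and 46.5 CPM in PiZ and at 15.8, 27.0, 21.3 and 18.6 CPM in PiZ/Chop-/-. All 4 PiZ/Chop-/- libraries lay under the lowest PiZ library, though library 2 only just (log2 fold change -0.86, SE 0.24, adjusted p = 0.116).

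Sars, the synthetase for serine, stood at 76.3, 94.7, 112 and 90.6 CPM in PiZ and at 54.8, 86.2, 58.6 and 52.6 CPM in PiZ/Chop-/- libraries 1 to 4. The groups overlapped only through PiZ/Chop-/- library 2 (log2 fold change -0.57, SE 0.21, adjusted p = 0.253). Aars, for alanine, stood at 114, 88.9, 107 and 145 CPM in PiZ and at 68.3, 112, 58.1 and 61.5 CPM in PiZ/Chop-/-. Again the one PiZ/Chop-/- library within the PiZ range was library 2 (log2 fold change -0.60, SE 0.23, adjusted p = 0.280).

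Eprs, a single protein that charges both glutamate and proline tRNA, stood at 254, 310, 340.5 and 205 CPM in PiZ and at 176, 248, 191 and 177 CPM in PiZ/Chop-/-. Only library 2 of PiZ/Chop-/- reached into the PiZ range (log2 fold change -0.49, SE 0.20, adjusted p = 0.315). Gars, for glycine, whose product serves both the cytosol and mitochondria, stood at 58.4, 60.2, 70.4 and 112 CPM in PiZ and at 55.8, 59.8, 36.7 and 53.6 CPM in PiZ/Chop-/-. PiZ library 4 was the high one here (log2 fold change -0.55, SE 0.24, adjusted p = 0.341), and without it the value was -0.28 (adjusted p = 0.604).

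Iars, for isoleucine, was the 1 cytosolic member above 0. It stood at 6.77, 10.2, 12.5 and 16.1 CPM in PiZ and at 11.6, 16.1, 8.94 and 15.8 CPM in PiZ/Chop-/-, with wide overlap (log2 fold change 0.18, SE 0.32, adjusted p = 0.863). Single libraries moved this value: it was 0.017 with PiZ library 1 left out and 0.39 with PiZ library 4 left out. Of the PiZ/Chop-/- libraries, dropping the second gave 0.075, the third 0.33 and the fourth 0.076. Tars, for threonine, had the highest adjusted p and the highest SE of the cytosolic set. It stood at 84.9, 52.0, 79.7 and 105 CPM in PiZ and at 61.8, 154, 49.6 and 46.1 CPM in PiZ/Chop-/-. Library 2 stood far above the other 3 of its group. With all 8 libraries Tars had -0.053 (SE 0.38, adjusted p = 0.970). Leaving out library 2 of PiZ/Chop-/- gave -0.61 (adjusted p = 0.263).

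The remaining 12 cytosolic genes had log2 fold changes between -0.56 (Vars, for valine) and -0.073 (Dars, for aspartate). Those of Lars, for leucine, and Nars, for asparagine, were -0.53 (SE 0.27, adjusted p = 0.423) and -0.44 (SE 0.22, adjusted p = 0.403). Values for Wars (tryptophan), Kars (lysine), Cars (cysteine) and Hars (histidine) were -0.29, -0.19, -0.17 and -0.16. Farsb and Farsa, the subunits of the phenylalanine enzyme, had -0.15 and -0.13. Yars (tyrosine) had -0.14 and Qars (glutamine) -0.11. SE in the cytosolic set ran from 0.19 to 0.38.

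**Figure D3:**
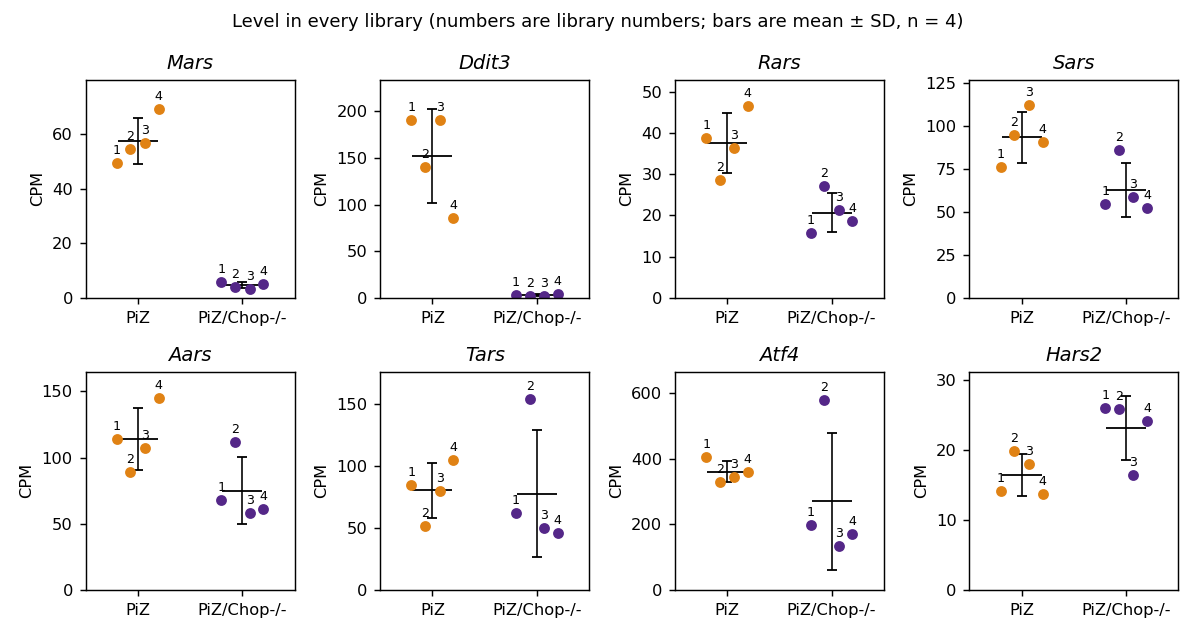
Levels in CPM are shown for 8 genes in each of the 4 PiZ and 4 PiZ/Chop-/- libraries, with library numbers beside the points and bars for mean ± SD (n = 4). Mars and Ddit3 are low in all 4 PiZ/Chop-/- libraries, while in Sars, Aars, Tars and Atf4 PiZ/Chop-/- library 2 lies above the other 3 of its group, at 154 CPM for Tars and 579 CPM for Atf4.

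PiZ/Chop-/- library 2 stood apart in the cytosolic set. In 14 of the 19 cytosolic genes other than Mars it was the highest library of its group, while over all tested genes it was the highest in 27.1%. In the 11 tested mitochondrial genes it was the highest in 1. A score for each library was the median over tested genes of log2 CPM, each gene centred on its mean over the 8 libraries, with Mars left out. The cytosolic score was 0.059, 0.14, 0.21 and 0.26 in PiZ and -0.39, 0.20, -0.34 and -0.18 in PiZ/Chop-/-. Library 2 was thus within the PiZ range and the other 3 below it. Without that library the median log2 fold change of all 20 cytosolic genes was -0.59 in place of -0.24, with 19 of 20 below 0, and 9 of the 20 had an unadjusted p under 0.05, against 14.6% of all genes tested in that fit. The mitochondrial median moved down as well in that fit, to -0.052 in place of 0.091, with 6 of 11 tested genes below 0. PiZ/Chop-/- library 2 was singled out after its synthetase values were seen. Mars was still the only member past the adjusted threshold (log2 fold change -3.53, adjusted p = 6.56e-06), and the next were Rars at -1.01 and Aars at -0.86 (adjusted p = 0.0618 each).

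Atf4 was high in the same library. Its level was 404, 330, 345 and 360 CPM in PiZ and 197, 579, 134 and 170 CPM in PiZ/Chop-/-. Library 2 was above every PiZ library, and the other 3 were below every PiZ library. With all 8 libraries Atf4 did not pass (log2 fold change -0.42, SE 0.42, adjusted p = 0.730). It passed when library 2 of PiZ/Chop-/- was left out, at -1.10 (edgeR, adjusted p = 0.0143). Library 2 was singled out after its high values were seen, so this adjusted p is not independent support. In that fit 169 genes were called, against 89 with all 8 libraries. The same limit applies to the fits without library 2 given below for Trmt6 and Slc3a2. The 4.02 CPM of Mars in library 2 lay among the 3.48 to 6.04 CPM of its group. Its 7 to 13 counts per PiZ/Chop-/- library leave wide counting error, so whether Mars followed this order cannot be told.

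**Figure D4:**
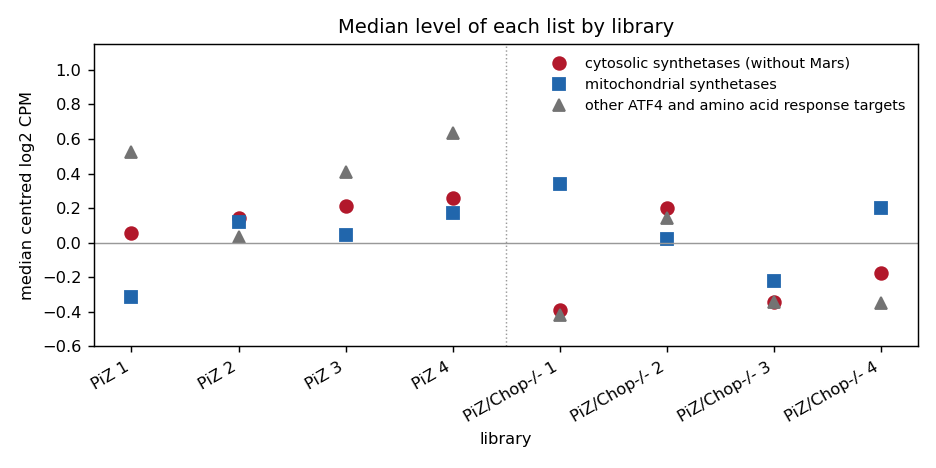
The median centred log2 CPM of 19 cytosolic synthetases (without Mars), 11 mitochondrial synthetases and 16 other ATF4 and amino acid response genes is shown for each of the 8 libraries. The cytosolic and ATF4 points are below 0 in PiZ/Chop-/- libraries 1, 3 and 4 and above 0 in library 2, at 0.20 and 0.15, while the mitochondrial points show no such split.

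Promoters of 6 cytosolic genes are shown, 5 because they hold letters of the C/EBP-ATF composite element and that of Mars because it was the member that passed. Windows from 250 bases before to 50 bases after the annotated start were taken from RefSeq (GRCm38.p6, the assembly of mm10) for 29 of the 38 members; Cars, Hars, Lars, Nars, Rars, Vars, Wars, Hars2 and Pars2 had no entry. The letters TGATGNAA of the C/EBP-ATF composite element were searched on both strands, so that a match on the other strand is printed as its reverse complement. They occurred in 5 of 13 cytosolic genes (38.5%), in 0 of 14 mitochondrial genes and in 0 of 2 scaffold genes, and in 4.51% of 27025 genes in the table. The 5 were Aars, Gars, Iars, Tars and Yars. Their windows are given 5′ to 3′ on the strand of the gene, with matches in capitals. That of Mars, like those of 7 other cytosolic genes, has no match. They lie at chr8:111033592-111033891 (Aars, plus strand), chr6:55037751-55038050 (Gars, plus), chr13:49681880-49682179 (Iars, plus), chr15:11399609-11399908 (Tars, minus), chr4:129189653-129189952 (Yars, plus) and chr10:127311737-127312036 (Mars, minus).
Aars: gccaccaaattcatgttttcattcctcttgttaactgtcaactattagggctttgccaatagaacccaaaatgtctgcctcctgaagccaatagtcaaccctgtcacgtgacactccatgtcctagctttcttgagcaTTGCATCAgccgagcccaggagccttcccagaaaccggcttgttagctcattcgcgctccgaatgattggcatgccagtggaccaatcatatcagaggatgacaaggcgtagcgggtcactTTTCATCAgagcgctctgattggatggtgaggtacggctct
Gars: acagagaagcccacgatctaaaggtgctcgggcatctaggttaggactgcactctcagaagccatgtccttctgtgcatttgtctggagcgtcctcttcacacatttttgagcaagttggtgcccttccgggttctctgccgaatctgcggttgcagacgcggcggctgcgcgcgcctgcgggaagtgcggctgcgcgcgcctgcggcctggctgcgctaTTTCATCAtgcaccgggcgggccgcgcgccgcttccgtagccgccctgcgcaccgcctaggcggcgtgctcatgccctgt
Iars: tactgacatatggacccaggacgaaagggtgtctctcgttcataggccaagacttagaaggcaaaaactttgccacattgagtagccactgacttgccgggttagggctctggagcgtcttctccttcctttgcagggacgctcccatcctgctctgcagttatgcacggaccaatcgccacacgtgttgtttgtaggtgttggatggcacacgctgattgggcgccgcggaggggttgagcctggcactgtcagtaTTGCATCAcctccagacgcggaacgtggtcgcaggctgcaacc
Tars: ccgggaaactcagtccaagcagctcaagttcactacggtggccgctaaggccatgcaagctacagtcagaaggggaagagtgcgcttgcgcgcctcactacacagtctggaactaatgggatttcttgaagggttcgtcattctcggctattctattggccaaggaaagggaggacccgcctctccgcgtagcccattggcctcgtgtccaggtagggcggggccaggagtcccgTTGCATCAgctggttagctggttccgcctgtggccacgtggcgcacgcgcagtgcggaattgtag
Yars: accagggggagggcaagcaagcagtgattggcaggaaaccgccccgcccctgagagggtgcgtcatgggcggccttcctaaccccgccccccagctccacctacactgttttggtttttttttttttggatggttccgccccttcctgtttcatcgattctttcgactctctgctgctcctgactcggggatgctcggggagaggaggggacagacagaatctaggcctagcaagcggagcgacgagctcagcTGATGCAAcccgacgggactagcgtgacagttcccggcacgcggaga
Mars: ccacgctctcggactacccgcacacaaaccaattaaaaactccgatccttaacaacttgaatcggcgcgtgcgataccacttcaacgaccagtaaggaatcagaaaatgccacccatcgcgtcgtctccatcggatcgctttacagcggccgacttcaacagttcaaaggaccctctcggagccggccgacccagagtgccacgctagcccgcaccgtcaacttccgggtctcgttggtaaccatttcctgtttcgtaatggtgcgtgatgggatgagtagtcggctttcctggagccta

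The match began 15 bases before the start in Tars and 30 bases before it in Gars. In Aars 1 match began 112 bases before the start and the other 9 bases after it. In Iars and Yars the match began 7 and 3 bases after the start. In 4 of the 5 genes with a match PiZ/Chop-/- library 2 was the highest of its group, and so it was in 4 of the 7 genes without a match, Mars left out. The median log2 fold change was -0.14 for the 5 with a match and -0.15 for those 7. The E-box, CACGTG, which does not overlap any of these matches, was found in 4 of the 13 cytosolic genes (Aars, Farsb, Iars and Tars), in 1 of 14 mitochondrial genes (Ears2) and in 8.09% of genes in the table. A match of letters does not show that a factor binds there.

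The cytosolic set was also divided by known roles. Of the 12 genes commonly listed as ATF4 targets, 11 lay below 0 and Mars passed; without Mars the median was -0.44. Of the 8 not so listed, none passed and 8 lay below 0, with a median of -0.15. The difference between these medians was not tested. The listed genes scored -0.39, -0.36 and -0.38 in PiZ/Chop-/- libraries 1, 3 and 4 and 0.12 to 0.27 in the PiZ libraries, while library 2 scored 0.27. The 8 enzymes of the multisynthetase complex (Eprs, Iars, Lars, Mars, Qars, Rars, Kars and Dars) had 7 values below 0 and a median of -0.19 without Mars. For the 12 enzymes outside the complex all were below 0, with a median of -0.23. Class I and class II enzymes, which have unrelated catalytic folds, had medians of -0.29 (9 genes, without Mars) and -0.17 (10 genes). Eprs, which charges both glutamate and proline tRNA, was counted in class I only, and the medians depend on this choice. Their difference was not tested.

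Both scaffold genes among the members, Aimp1 and Aimp2, had negative values that did not pass. Aimp1 stood at 63.4, 69.5, 66.6 and 84.9 CPM in PiZ and at 52.5, 43.1, 62.1 and 41.5 CPM in PiZ/Chop-/-. Every PiZ/Chop-/- library was below every PiZ library, here with library 2 among the low ones (log2 fold change -0.51, SE 0.20, adjusted p = 0.291). Aimp2 stood at 27.1, 31.6, 25.4 and 36.5 CPM in PiZ and at 22.8, 28.2, 14.9 and 21.4 CPM in PiZ/Chop-/-. Library 2 again reached into the PiZ range (log2 fold change -0.47, SE 0.24, adjusted p = 0.426). As with Mars, the 3′ end of Aimp2 is overlapped by a gene on the other strand that has counts, Eif2ak1. The same holds for Farsb (Sgpp2), Yars (C77080), Cars2 (Naxd), Fars2 (Nrn1) and Iars2 (Rab3gap2), 7 members in all within the last 500 annotated bases. Reads of these pairs may not be separable. Over all 8 libraries Sgpp2 had only 1 count and Rab3gap2 63. C77080, Naxd, Nrn1 and Eif2ak1 had 479 to 593, and Ddit3 had 1401.

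The mitochondrial synthetases showed no common direction. Of the 11 tested, none passed, 5 lay below 0 and 6 above, the median was 0.091 and the range -0.34 to 0.48, with SE from 0.20 to 0.44. None had an unadjusted p under 0.05 or groups that did not overlap. DESeq2 and limma-voom called none either. The mitochondrial score was -0.31, 0.12, 0.045 and 0.17 in PiZ and 0.34, 0.023, -0.22 and 0.20 in PiZ/Chop-/-, so the groups overlapped in part, with PiZ/Chop-/- libraries 1 and 4 above every PiZ library and libraries 2 and 3 within the PiZ range. Summed over members, the cytosolic genes without Mars held 7.93, 7.28, 7.45 and 6.63 counts for each mitochondrial count in PiZ libraries 1 to 4. In PiZ/Chop-/- libraries 1 to 4 the ratio was 4.33, 7.37, 5.85 and 5.15, below the PiZ range in 3 libraries and within it in library 2. The cytosolic sum averaged 1546 ± 73.7 CPM for PiZ against 1225 ± 235 CPM in PiZ/Chop-/-, and the mitochondrial sum 212 ± 20.2 and 219 ± 36.0 CPM (SD, n = 4 each).

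Hars2, the mitochondrial synthetase for histidine, had the lowest p of its set. It stood at 14.1, 19.9, 18.0 and 13.8 CPM in PiZ and at 26.0, 25.9, 16.4 and 24.2 CPM in PiZ/Chop-/-. In 3 of the 4 PiZ/Chop-/- libraries it was above every PiZ library (log2 fold change 0.48, SE 0.25, adjusted p = 0.426). Its head-to-head neighbour Hars, the cytosolic enzyme for the same amino acid, had -0.16. Vars2 stood at 19.1, 20.4, 26.7 and 28.9 CPM in PiZ and at 38.6, 25.3, 26.3 and 25.6 CPM in PiZ/Chop-/-, only library 1 lying above the PiZ range (log2 fold change 0.28, adjusted p = 0.666, and 0.11 without that library). Tars2 stood at 9.23, 19.9, 12.9 and 17.1 CPM in PiZ and at 17.7, 10.3, 9.43 and 9.32 CPM in PiZ/Chop-/-, with library 1 high again (log2 fold change -0.34, adjusted p = 0.702). Without that library Tars2 had -0.61, and without PiZ library 2 it had -0.16. Yars2, with the highest adjusted p of the set, stood at 11.1, 14.1, 16.7 and 11.9 CPM in PiZ and at 16.7, 19.0, 6.45 and 15.8 CPM in PiZ/Chop-/- (0.091, adjusted p = 0.935).

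Other tested mitochondrial genes were Lars2, Nars2 and Fars2 with log2 fold changes of 0.26, 0.20 and 0.15. Ears2, Aars2, Iars2 and Cars2 had -0.23, -0.20, -0.15 and -0.11. PiZ/Chop-/- library 1 held the highest value of its group in 6 of the 11 genes, Lars2 among them at 33.9 CPM. The same library had the highest level of Gm42418, a gene that collects ribosomal RNA reads, at 97936 CPM against 41563 to 68502 CPM in the rest of its group; the part of this in the mitochondrial values was not tested. The 5 members that the count filter of the main fit left untested were Mars2, Pars2, Rars2, Sars2 and Wars2, with 27 to 74 counts over all 8 libraries. Sars2 stood at 3.86 to 6.64 CPM in PiZ and at 2.79 to 3.26 CPM in PiZ/Chop-/-, with no overlap, but its 5 to 14 counts a library leave wide counting error. Mars2, the mitochondrial partner of Mars, stood at 6.77, 2.91, 1.93 and 1.42 CPM in PiZ and at 2.32, 0, 1.99 and 1.40 CPM in PiZ/Chop-/-. Its 0 in library 2 allows a level of up to 1.72 CPM (3 counts, counting error only).

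Neighbouring steps of tRNA biology were given by lists outside the members. Of 54 genes of tRNA maturation and modification 38 were tested, none passed, and 25 lay below 0 (median -0.16). Over all tested genes 50.2% lay below 0. Trmt6, part of the enzyme that methylates adenosine in tRNA, stood at 31.4, 31.6, 28.6 and 47.9 CPM in PiZ and at 17.2, 22.4, 11.4 and 15.4 CPM in PiZ/Chop-/-, with no overlap. Its log2 fold change was -1.07 (SE 0.26, adjusted p = 0.0708), past the threshold with DESeq2 (adjusted p = 0.0339), with no filter on low counts (0.0120) and without PiZ/Chop-/- library 2 (0.0357). Tprkb, a subunit of the complex that makes the threonylcarbamoyl modification of tRNA, had 0.65 (SE 0.20, adjusted p = 0.170). Of 10 further synthetase partners 7 were tested, none passed and 1 lay below 0 (median 0.19). Of 8 elongation factors 7 were tested, none passed and 5 lay below 0 (median -0.20), with Eef1g at -0.83 (SE 0.31, adjusted p = 0.270) and at -0.34 without PiZ library 4 (adjusted p = 0.533), where it was high.

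Of 27 other genes of the ATF4 and amino acid response 16 were tested, and 2 were called lower, Nupr1 and Trib3. Of the 16, 13 lay below 0, with a median of -0.61. Over all tested genes 0.692% were called lower and 50.2% lay below 0. Nupr1, a stress-response nuclear protein, ranged from 86.7 to 209 CPM in PiZ and from 4.96 to 15.5 CPM in PiZ/Chop-/- (log2 fold change -3.94, adjusted p = 0.000243). Trib3, a pseudokinase, ranged from 114 to 394 CPM in PiZ and from 12.6 to 40.0 CPM in PiZ/Chop-/- (-3.23, adjusted p = 0.0139). Leaving out library 3 or library 4 of PiZ/Chop-/- raised the adjusted p of Trib3 to 0.0578 and 0.0683. Slc3a2, the shared heavy chain of amino acid exchangers, had -0.82 (SE 0.24, adjusted p = 0.132), and it passed without PiZ/Chop-/- library 2 (adjusted p = 0.0400) and with no filter on low counts (0.0263). The score of these 16 genes was 0.52, 0.032, 0.41 and 0.64 in PiZ and -0.42, 0.15, -0.34 and -0.35 in PiZ/Chop-/-. As with the cytosolic synthetases, library 2 was the high one of its group.

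Some markers of other cells differed between the groups and others overlapped. Summed markers of Kupffer cells and macrophages (12 of 12 detected, none called) ran from 1048 to 1511 CPM in PiZ and from 821 to 977 CPM in PiZ/Chop-/-. Those of cycling cells (7 of 7 detected, 3 tested, 2 called lower) ran from 36.1 to 66.6 CPM in PiZ and from 7.92 to 21.8 CPM in PiZ/Chop-/-. Over all tested genes 0.692% were called lower. Endothelial markers (10 of 10 detected, none called) ran from 264 to 359 CPM in PiZ and from 380 to 394 CPM in PiZ/Chop-/-. Of these 10 genes 8 had log2 fold changes above 0 and 2 below, from -0.59 to 0.58. Stellate cell markers (10 of 10 detected) overlapped, at 364 to 467 and 260 to 404 CPM. T, NK and B cell markers (10 of 10 detected, 1 tested, none called) did not overlap, at 12.5 to 15.5 CPM in PiZ and 6.50 to 10.9 CPM in PiZ/Chop-/-. These sums rest on few counts. Cholangiocyte markers (7 of 7 detected) overlapped, at 29.4 to 54.0 and 19.4 to 50.6 CPM, as did red cell markers (5 of 5 detected), at 351 to 832 and 341 to 1455 CPM. Neutrophil markers (5 of 6 detected, Elane at 0 counts) were at 8.07 to 30.1 CPM in PiZ and, in PiZ/Chop-/-, at 85.1 CPM in library 2 against 3.72 to 7.92 CPM in the other 3. Library 2 is also the one in which the cytosolic synthetases and Atf4 were high. The part of these cells in the synthetase values was not tested.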

How the data were processed

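Read counts per gene were deposited by the authors, 1 file per library; alignment with STAR, counting with HTSeq and the mm10 build are named per the submitters' processing notes. Versions, annotation, strand setting and the treatment of duplicates and multi-mapping reads were not given in the sources used here. Counts were tested as deposited in R 4.3.3 with edgeR 4.0.16 (filterByExpr with a minimum count of 10, TMM scaling, robust quasi-likelihood test, 4 against 4 libraries, Benjamini-Hochberg adjusted p under 0.05 over 8669 genes). DESeq2 1.42.0, limma-voom (limma 3.58.1), other scalings and filters, a replicate block and left-out libraries were alternatives. The members and lists were chosen with earlier results of these data known. Per-library values are given for Mars and the members with the lowest p of each set (6 cytosolic, 3 mitochondrial, 2 scaffold), the cytosolic member with the largest positive change and the members with the highest p; from other lists up to 4 genes were named by lowest p. Dctn2, Atp23, Lrp1, Mbd6, Mars2 and Sars2 were named after their values were seen. Replicate numbers are not stated to mark pairs, so the main test did not pair the libraries. Statistics were tested on simulated data.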

Additional observations from a re-analysis of the deposited data

Results flagged for a closer look

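In 110 groups of 4 libraries, 10 held 1 library whose gap to the nearest other, as a share of the group's range, was above Dixon's 95% critical value; chance marks about 1 in 20 groups. In 5 of the 10 the high library was PiZ/Chop-/- library 2. These flags are not independent, since Tars is also part of the first 2 scores below, which share further genes. Tars stood there at 154 CPM against 46.1 to 61.8 CPM (gap share 0.855), and Atf4 at 579 against 134 to 197 CPM (0.858). The score of the ATF4-listed cytosolic synthetases was 0.27 against -0.39 to -0.36 (0.960). That of the cytosolic enzymes outside the complex was 0.24 against -0.35 to -0.26 (0.851). That of other ATF4 and amino acid response genes was 0.15 against -0.42 to -0.34 (0.870).

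PiZ/Chop-/- library 1 was high in 2 mitochondrial genes, Vars2 at 38.6 against 25.3 to 26.3 CPM (0.923) and Tars2 at 17.7 against 9.32 to 10.3 CPM (0.877). PiZ library 4 was high in Hars at 42.7 against 23.2 to 25.3 CPM (0.892), in Trmt6 at 47.9 against 28.6 to 31.6 CPM (0.847) and in Eef1g at 104 against 36.0 to 44.2 CPM (0.879).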

How the results depend on the processing

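Over 20 alternatives Mars stayed called, no other member was called, and the cytosolic median stayed below 0 and below the mitochondrial median. The mitochondrial median was below 0 in 6 of the 20. Among these were DESeq2 (-0.11) and no filter on low counts (-0.10), which took in all 16 mitochondrial genes, 9 of them below 0, in place of 11. Leaving out 1 library gave -3.75 to -3.47 for Mars, -0.59 to -0.21 for the cytosolic median (-0.59 without PiZ/Chop-/- library 2) and -0.092 to 0.22 for the mitochondrial median (-0.092 without PiZ/Chop-/- library 1). Cytosolic genes below 0 numbered 15 to 19 of 20, with 15 without PiZ/Chop-/- library 1. In at least 1 alternative 5 cytosolic genes (Cars, Dars, Hars, Tars and Yars) and 4 mitochondrial genes (Cars2, Lars2, Nars2 and Yars2) changed sign. Genes called, 89 of all tested, were 208 with DESeq2, 357 with no filter on low counts and 46 to 169 without 1 library: 53 without PiZ library 3, and, in PiZ/Chop-/-, 49 without library 1, 169 without 2, 46 without 3 and 51 without 4. Tars, -0.61 to 0.13 over single left-out libraries, changed sign to 0.12 without PiZ library 4, to 0.042, 0.11 and 0.13 without PiZ/Chop-/- libraries 1, 3 and 4, and to 0.23 without PiZ libraries 1 and 4 together. Yars2, -0.052 to 0.34 likewise (lowest without library 2 of PiZ/Chop-/-), changed sign to -0.017 with limma-voom and to -0.096 when PiZ libraries 1 and 4 were both left out. The cause was not tested. With the replicate block 76 genes and 1 member were called, and the cytosolic and mitochondrial medians were -0.25 and 0.044. Deviations from the group mean correlated at -0.051 to 0.049 between same-numbered libraries and at -0.13 to 0.12 between differently numbered ones. Such values cannot decide whether same-numbered libraries share a litter, day or batch. The 5 mitochondrial genes left out of the main fit, at 27 to 74 counts, were fitted with DESeq2 and with no filter on low counts, and none was called.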
